A study of Mus musculus with 16 samples.

Results

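The hair genes described here are the keratins and keratin-associated proteins of the hair follicle. They were taken from the gene symbols: every symbol that starts with Krtap, and the keratin genes Krt25 to Krt28, Krt31 to Krt36, Krt71 to Krt75 and Krt81 to Krt86, with letter suffixes allowed. The rule found 76 of the 26357 genes in the count table, 21 of them Krt genes and 55 Krtap genes. A count in at least 1 library was present for 70 of them, all 21 Krt genes and 49 Krtap genes, and 6 Krtap genes had none.

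The RNA came from mice in a study of the skin inflammation that interleukin-23 (IL-23), a cytokine upstream of the IL-17 axis, causes in this species. There were 16 libraries in 4 groups of 4: IL-23 with oral dosing, vehicle with oral dosing, IL-23 with intraperitoneal dosing and vehicle with intraperitoneal dosing. Oral and intraperitoneal are the routes by which a drug vehicle with 0 mpk of compound was given, so no group received a drug and every group received a dosing vehicle. The labels name no tissue, harvest day, strain, sex or age and do not say that each library is 1 animal, so p-values measure the spread between these libraries.

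Hair is built in the follicle in layers. Shaft cells fill with type I and type II hair keratins, which pair into filaments, and the filaments are embedded in a matrix of keratin-associated proteins that are rich in cysteine or in glycine and tyrosine and are cross-linked by disulfide bonds. A separate set of keratins forms the inner root sheath, which moulds the growing shaft, and Krt75 marks the companion layer between the inner and outer root sheaths. These genes are transcribed mainly in growing follicles and are low in resting ones.

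Library totals ran from 6381990 to 14432930 counts, and the hair genes took 489 to 1489 counts of each library. In CPM, counts scaled to a common library size with TMM factors, that is 70.7 to 158 CPM, so most of these genes were at the edge of detection. The IL-23 libraries tended to be smaller. With TMM factors their sizes ran from 6030970 to 9403700, and those of the vehicle libraries from 7578620 to 15293200. Raw counts of an IL-23 group and a vehicle group are therefore not on the same scale. Of the 70 genes with counts, 11 passed the count filter used for testing: 9 Krt genes (Krt25, Krt27, Krt28, Krt32, Krt35, Krt71, Krt73, Krt75 and Krt84) and 2 Krtap genes (Krtap3-2 and Krtap26-1). The other 59 are described from their counts and from a second fit with no count filter. Krt75 alone held 53.1% of all counts of the hair genes. Per kilobase of exon, the mean level over all libraries was 16.5 CPM per kb for Krt75, 5.38 for Krtap3-2, 2.39 for Krt32 and 1.99 for Krt84, and 1.13 or lower for every other hair gene.

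Libraries 68 and 28 stood apart in some measures, and whether those of library 28 bear on the hair genes was not tested. Library 68 (IL-23, oral) held the highest level of many low hair genes, given below. Library 28 (IL-23, intraperitoneal) held the highest summed level of an interferon list of 8 genes, 1500 CPM, and of a T cell list of 7 genes, 62.8 CPM. The other 3 libraries of its group held 199.97 to 216 CPM of the interferon list and 13.9 to 21.4 CPM of the T cell list. Without library 68, the same numbers of hair genes were called in the oral comparison, 3 higher and 2 lower. Without library 28, 2 were called higher and 6 lower in the intraperitoneal comparison, against 2 and 5 with it.

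In the oral comparison, 3 of the 11 tested hair genes were higher with IL-23 (Krt84, Krtap26-1 and Krt75) and 2 were lower (Krtap3-2 and Krt32), by edgeR's quasi-likelihood test at a Benjamini-Hochberg adjusted p under 0.05. Over all 14671 genes tested, 63.3% were called in this comparison, 29.2% higher and 34% lower. In the intraperitoneal comparison, 2 were higher (Krt84 and Krt75) and 5 lower (Krtap3-2, Krtap26-1, Krt73, Krt32 and Krt27), where 61.7% of all genes were called, 30.8% higher and 30.9% lower. Neither count of called hair genes, 5 of 11 and 7 of 11, stands out against these shares. The median log2 fold change of the 11 genes was -0.20 in the oral and -1.29 in the intraperitoneal comparison, beside -0.06 and -0.02 over all genes tested. In bulk RNA, fewer cells of a type and less RNA per cell cannot be told apart.

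**Figure D1:**
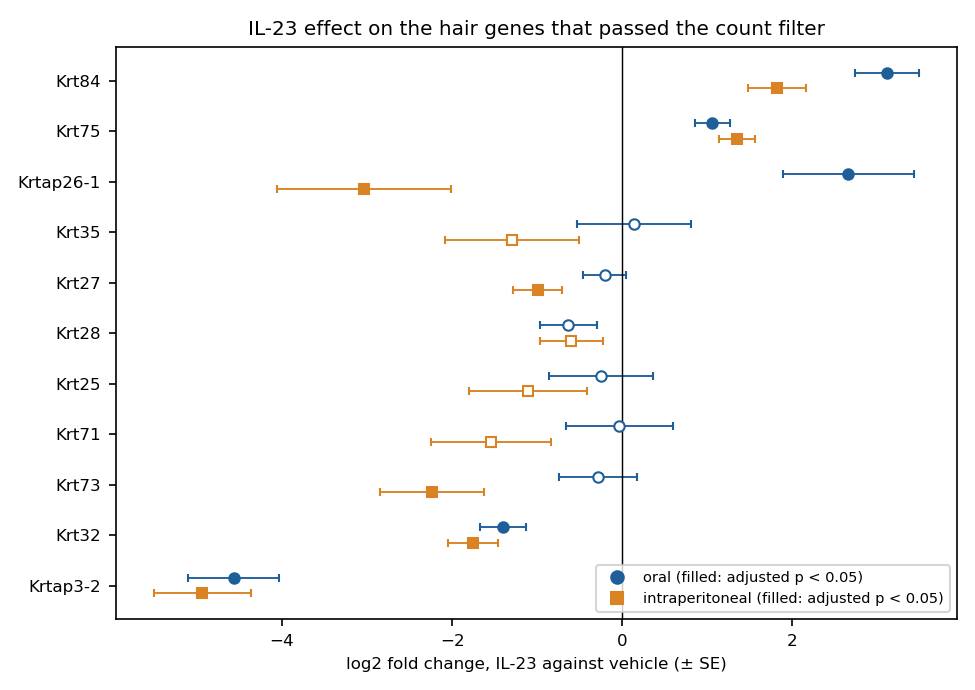
Log2 fold change of IL-23 against vehicle (x axis, with standard error) for the 11 hair genes that passed the count filter (y axis), circles for oral and squares for intraperitoneal dosing; filled symbols have an adjusted p under 0.05. Krt84 and Krt75 lie to the right of 0 and Krtap3-2 and Krt32 to the left in both routes, while Krtap26-1 lies at 2.66 in one and -3.04 in the other.

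Krtap3-2 (gene ID 66708), a high-sulfur keratin-associated protein of the hair cortex, had the lowest fold change with IL-23 of the tested hair genes in both routes. It lies on the minus strand of chromosome 11, chr11:99555823-99556853 in GRCm38.p6, between its relatives Krtap3-3 and Krtap3-1. The promoters of Krtap3-2 and Krtap3-3 are shown because these neighbours share much of their transcript sequence and differ in level, and those of Krt32 and Krt84 because these keratins were called in opposite directions in both routes. Each runs from 250 bases before to 50 bases after the RefSeq start, 5' to 3' on the gene's own strand, which is the minus strand for all 4. Capitals mark matches on either strand to a TATA box (TATAAA), the LEF/TCF core (CAAAG) and the AP-1 motif (TGANTCA); a STAT motif (TTCNNNGAA) was also searched and is in none of the 4.
Krtap3-2 chr11:99556804-99557103: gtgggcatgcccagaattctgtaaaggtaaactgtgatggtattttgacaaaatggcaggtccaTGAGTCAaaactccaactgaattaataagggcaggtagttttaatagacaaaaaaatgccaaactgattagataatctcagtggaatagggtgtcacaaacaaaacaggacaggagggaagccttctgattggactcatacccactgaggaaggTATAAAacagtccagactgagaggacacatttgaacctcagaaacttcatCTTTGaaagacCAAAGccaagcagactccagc
Krtap3-3 chr11:99550814-99551113: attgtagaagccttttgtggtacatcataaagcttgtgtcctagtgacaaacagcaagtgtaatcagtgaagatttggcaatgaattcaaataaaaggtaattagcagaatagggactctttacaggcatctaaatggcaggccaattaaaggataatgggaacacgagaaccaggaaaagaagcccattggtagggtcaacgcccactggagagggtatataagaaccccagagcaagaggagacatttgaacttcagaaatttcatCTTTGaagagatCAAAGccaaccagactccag
Krt32 chr11:100088220-100088519: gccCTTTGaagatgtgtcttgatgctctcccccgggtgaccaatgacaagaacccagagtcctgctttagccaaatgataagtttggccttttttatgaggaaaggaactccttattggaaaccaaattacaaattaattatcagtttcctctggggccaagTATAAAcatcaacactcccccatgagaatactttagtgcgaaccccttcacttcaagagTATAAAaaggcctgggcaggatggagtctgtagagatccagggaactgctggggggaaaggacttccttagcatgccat
Krt84 chr15:101532771-101533070: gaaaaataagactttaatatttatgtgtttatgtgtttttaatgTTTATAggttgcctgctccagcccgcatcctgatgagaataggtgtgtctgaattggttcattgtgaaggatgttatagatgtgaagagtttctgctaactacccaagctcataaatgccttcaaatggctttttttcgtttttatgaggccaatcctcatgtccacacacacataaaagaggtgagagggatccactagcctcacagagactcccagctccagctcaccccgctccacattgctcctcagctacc
The Krtap3-2 window holds a TATA box that begins 32 bases before the start, an AP-1 match that begins 186 bases before it, and CAAAG matches that begin 18 and 29 bases after it. The Krtap3-3 window has the CAAAG pair, at 18 and 30 bases after the start, but no match to TATAAA or to AP-1. It does hold the letters TATATAA before the start, a close variant that the exact search does not find. The missing match therefore does not show that the neighbours differ in a TATA box. The Krt32 window has TATA boxes that begin 88 and 29 bases before the start, and a CAAAG match 247 bases before it, and the Krt84 window has only 1 TATA box, on the other strand, 206 bases before it. A match is a description of these letters and not a site at which a factor was shown to bind.

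Values of single libraries are given throughout in the order of the library numbers: 4, 27, 33 and 51 for oral vehicle, 14, 24, 26 and 68 for oral IL-23, 49, 50, 59 and 67 for intraperitoneal vehicle, and 25, 28, 31 and 61 for intraperitoneal IL-23. In the oral vehicle libraries Krtap3-2 stood at 8.27, 11.2, 11.3 and 11.9 CPM. With IL-23 and oral dosing it stood at 0, 0.362, 0.381 and 0.851 CPM. Every IL-23 library was thus far under every vehicle library, and library 14 held no count. The fitted log2 fold change was -4.57 ± 0.54 (SE, n = 4 per group; adjusted p = 1.91e-06, edgeR), and the pooled counts were 14 with IL-23 and 482 with vehicle, a level 23.9-fold lower (exact 95% interval 14.1 to 44.0, which covers counting error only). In the intraperitoneal vehicle libraries it stood at 17.7, 6.86, 5.08 and 13.5 CPM, and with IL-23 at 0.324, 0, 0.594 and 0.497 CPM. The groups again did not overlap: the log2 fold change was -4.94 ± 0.57 (n = 4 per group; adjusted p = 1.92e-06, edgeR), from 522 to 10 counts, 33.6-fold lower (18.1 to 70.5). Without library 68 the oral fold change was -5.24, and without library 28, which held no Krtap3-2 count, the intraperitoneal fold change was -4.45. Krtap3-2 passed the count filter through vehicle libraries, with 52 to 271 counts each, against 0 to 8 in the IL-23 libraries. The gene was thus admitted by the groups where it is high. The fit with no count filter gave -4.54 in the oral and -4.91 in the intraperitoneal comparison (adjusted p = 4.45e-07 and 4.24e-07, edgeR).

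The neighbours Krtap3-3 and Krtap3-1 had lower levels, with a mean of 1.01 CPM per kb over all libraries for Krtap3-3 against 5.38 for Krtap3-2. Krtap3-3 stood at 0.680 ± 0.227 CPM (SD, n = 4) in the oral vehicle group and at 0.581 ± 0.174 CPM with IL-23, from 32 and 19 counts, and its groups overlapped. In the intraperitoneal groups it stood at 1.35 ± 0.644 and 0.372 ± 0.333 CPM, and the fit with no count filter called it lower there (log2 fold change -1.85 ± 0.59, adjusted p = 0.0140, edgeR). Krtap3-1 had 5 counts in the oral vehicle and 12 in the oral IL-23 group, 10 in the intraperitoneal vehicle group and 0 in the intraperitoneal IL-23 group. Of the 50-base windows along the Krtap3-2 transcript, 28.9% occur in Krtap3-3 or Krtap3-1 too, and how reads that match several genes were counted is not given in the sources used here, so the split among the 3 genes is uncertain.

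Krt32 (gene ID 16670, chr11:100080848-100088269, minus strand), a type I keratin of the hair cuticle, was called lower with IL-23 in both routes. Its levels were 7.0, 8.16, 6.47 and 6.69 CPM in the oral vehicle libraries and 1.31, 2.66, 3.05 and 3.40 CPM with IL-23. In the intraperitoneal libraries they were 6.02, 5.94, 5.4 and 3.6 CPM with vehicle and 1.46, 1.85, 2.02 and 0.663 CPM with IL-23. No IL-23 library reached the lowest vehicle library of its route. The log2 fold change was -1.40 ± 0.27 in the oral (adjusted p = 2.45e-04, edgeR) and -1.76 ± 0.30 in the intraperitoneal comparison (adjusted p = 8.16e-05), with n = 4 per group. An exon of Gm11571 overlaps Krt32 on the other strand, and as the strand setting of the counting is not given, reads of the pair may not be told apart.

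Krt84 (gene ID 16680, chr15:101525026-101532820, minus strand) is a type II hair keratin known from tongue papillae and nail as well as hair. It rose with IL-23 in both routes. In the oral vehicle libraries it stood at 1.19, 0.975, 1.07 and 0.811 CPM, and with IL-23 at 8.37, 8.33, 9.52 and 9.46 CPM. The 4 IL-23 libraries lay close together, well above all 4 vehicle libraries: log2 fold change 3.11 ± 0.37 (n = 4 per group; adjusted p = 2.46e-06, edgeR). In the intraperitoneal vehicle libraries it stood at 0.850, 2.51, 4.61 and 1.80 CPM, and with IL-23 at 12.3, 6.81, 7.37 and 7.96 CPM. The vehicle libraries spread more than in the oral group, up to library 59, but stayed under the IL-23 libraries: log2 fold change 1.82 ± 0.34 (n = 4 per group; adjusted p = 2.30e-04, edgeR). No 50-base window of Krt84 occurs in another gene.

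Krt75 (gene ID 109052, chr15:101563343-101573904, minus strand), the companion layer keratin, also rose in both routes. Per kilobase, its mean level in the oral vehicle group, 11.8 CPM per kb, was near that of Krtap3-2, 10.3 CPM per kb, and with IL-23 it was 24.6 against 0.386 CPM per kb. It stood at 50.2, 38.9, 37.1 and 27.7 CPM in the oral vehicle libraries and at 76.5, 70.2, 95.6 and 78.8 CPM with IL-23. In the intraperitoneal libraries it stood at 23.9, 35.6, 23.3 and 26.9 CPM with vehicle and at 104, 51.1, 58.4 and 64.0 CPM with IL-23. The groups of each route did not overlap, and library 25 was the highest of all. The log2 fold change was 1.06 ± 0.21 in the oral (adjusted p = 2.81e-04, edgeR) and 1.35 ± 0.21 in the intraperitoneal comparison (adjusted p = 4.36e-05), with n = 4 per group. An exon of Gm44460 overlaps Krt75 on the other strand, with the same uncertainty as for Krt32.

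**Figure D2:**
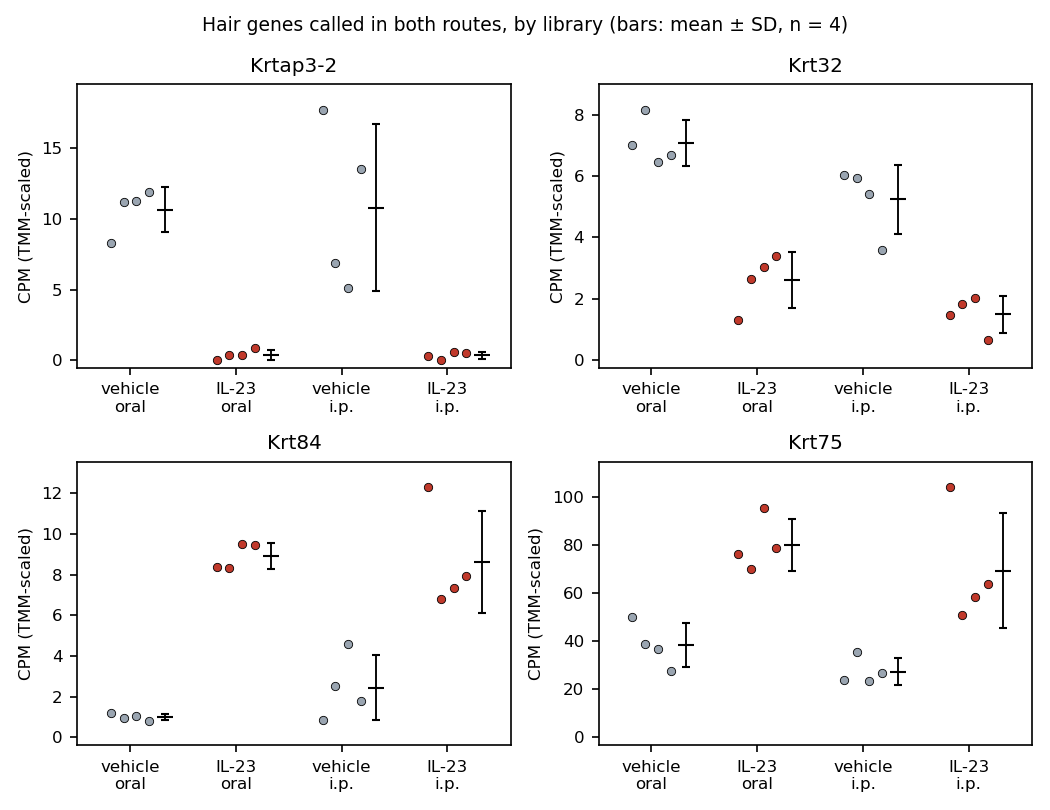
CPM (y axis, TMM-scaled) of Krtap3-2, Krt32, Krt84 and Krt75 in each library (points) of the 4 groups (x axis; i.p., intraperitoneal), with mean ± SD beside the points. Krtap3-2 lies between 5.08 and 17.7 CPM in the vehicle libraries and at 0.851 CPM or lower in the IL-23 libraries, and Krt84 lies above 6 CPM only in IL-23 libraries.

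The inner root sheath keratins were represented by 5 tested genes: the type I genes Krt25, Krt27 and Krt28 and the type II gene Krt71, which are found in its several layers, and Krt73, of its cuticle. None of the 5 was called in the oral comparison, where their log2 fold changes ran from -0.63 ± 0.34 (Krt28, adjusted p = 0.109) to -0.04 ± 0.63 (Krt71, adjusted p = 0.963, edgeR). In the intraperitoneal comparison Krt73 and Krt27 were called lower. Krt73 stood at 2.22, 1.06, 0.794 and 1.1 CPM with vehicle and at 0.162, 0.346, 0.238 and 0.332 CPM with IL-23, groups that did not overlap (log2 fold change -2.24 ± 0.61, adjusted p = 0.00467, edgeR), from 63 to 8 counts. Krt27 stood at 1.90, 1.06, 1.43 and 1.80 CPM with vehicle and at 0.649, 0.808, 0.832 and 0.829 CPM with IL-23, again with no overlap (-0.99 ± 0.29, adjusted p = 0.00681, edgeR).

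The other tested inner root sheath keratins had negative fold changes in the intraperitoneal comparison that did not pass the test. They were -1.10 ± 0.69 for Krt25, -0.60 ± 0.37 for Krt28 and -1.54 ± 0.71 for Krt71 (adjusted p = 0.175, 0.167 and 0.0690, edgeR). Krt71 was just over the threshold. Its vehicle libraries spread widely, with library 49 the highest at 4.32 CPM, and 1 IL-23 library, library 28 at 1.38 CPM, lay far from the others of its group. Without library 28 its fold change was -2.14, with an adjusted p of 0.0360 (edgeR), and it also passed the test without vehicle library 4 (0.0421), 50 (0.0372) or 59 (0.0421). Without vehicle library 49 it was -0.86, with an adjusted p of 0.331 (edgeR). Krt28 passed in the oral comparison without library 26 (adjusted p = 0.0300) or library 4 (0.0430, edgeR). Krt26 and Krt74, below the filter, had 17 and 5 counts in the intraperitoneal vehicle group and 3 each with IL-23, and Krt72 had 2 to 4 counts in each of the 4 groups. Scaled for library size, the intraperitoneal ratios of IL-23 to vehicle were 0.274 for Krt26, 0.932 for Krt74 and 3.11 for Krt72. The 8 inner root sheath keratins together summed to 5.01, 11.8, 15.1 and 13.7 CPM in the oral vehicle libraries and 4.6, 5.80, 10.2 and 14.9 CPM with IL-23, groups that overlapped over nearly their whole range. In the intraperitoneal libraries the sum ran from 5.54 to 15.2 CPM with vehicle and was 3.24, 6.34, 4.16 and 3.81 CPM with IL-23, where library 28 overlapped the lowest vehicle library.

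Of the hair keratins of the shaft other than Krt32 and Krt84, Krt35, a type I keratin made early in the shaft, was the 1 gene tested. It stood at 0.0795, 2.31, 2.33 and 4.67 CPM in the oral vehicle libraries, a wide spread, and at 0.985, 2.05, 1.52 and 5.21 CPM with IL-23 (log2 fold change 0.14 ± 0.67, adjusted p = 0.869, edgeR). In the intraperitoneal libraries it stood at 3.27, 0.264, 2.14 and 2.40 CPM with vehicle and at 1.30, 0.692, 0.951 and 0.497 CPM with IL-23 (-1.29 ± 0.79, adjusted p = 0.164). The groups overlapped in both routes.

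The remaining shaft keratins, Krt31, Krt33a, Krt33b, Krt34 and Krt36 of type I and Krt81, Krt82, Krt83 and Krt86 of type II, mostly cortex and cuticle keratins, were below the filter. Together with Krt35 they had 259 counts in the oral vehicle group and 297 in the oral IL-23 group, and 370 and 64 in the intraperitoneal groups. The sum was 1.27, 6.09, 7.0 and 8.93 CPM in the oral vehicle libraries and 1.64, 6.64, 7.23 and 18.6 CPM with IL-23, where library 68 was the highest. It was 9.74, 3.69, 10.3 and 6.30 CPM in the intraperitoneal vehicle libraries and 3.08, 2.19, 2.50 and 0.829 CPM with IL-23, with no overlap. Krt81 had 17 counts in the intraperitoneal vehicle group and 0 with IL-23, at least 3.65-fold lower when the empty group is set to 3 counts in all. Krt33b went from 40 counts to 1 there and Krt83 from 41 to 5, and Krt82 from 28 to 12. Krt31, Krt33a, Krt33b and Krt34 share stretches of sequence with each other, as do Krt81, Krt83 and Krt86, so single values within these sets are uncertain.

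The Krtap genes with counts were grouped by the composition of their coding sequence. There were 18 high-sulfur, 15 ultrahigh-sulfur and 16 high glycine-tyrosine genes, and proteins of the latter kind are known as early products of the cortex. High sulfur is the class left over by the cut-offs and has no cysteine minimum, so the classes need not match the named Krtap families. With Krtap3-2 set aside, they held 411 counts in the oral vehicle group and 561 in the oral IL-23 group, and 706 and 118 in the intraperitoneal groups. The sum was 5.88, 8.16, 12.7 and 8.01 CPM in the oral vehicle libraries and 3.45, 18.4, 10.7 and 32.3 CPM with IL-23. The oral IL-23 libraries thus lay on both sides of the vehicle libraries, library 14 below them and libraries 24 and 68 above. In the intraperitoneal libraries it was 19.2, 12.5, 15.9 and 11.7 CPM with vehicle and 7.13, 2.42, 3.92 and 3.32 CPM with IL-23, with no overlap.

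In all 3 classes the intraperitoneal IL-23 group had the lowest mean. The high-sulfur genes without Krtap3-2 summed to 3.67 ± 1.63 CPM (SD, n = 4) in the oral vehicle group and 8.37 ± 6.87 with IL-23, and to 6.85 ± 1.69 and 1.82 ± 1.11 CPM in the intraperitoneal groups. The ultrahigh-sulfur genes summed to 1.48 ± 0.801 and 3.72 ± 3.18 CPM in the oral groups and to 2.91 ± 1.2 and 0.623 ± 0.246 CPM in the intraperitoneal groups. The high glycine-tyrosine genes summed to 3.55 ± 0.573 and 4.12 ± 2.47 CPM in the oral groups and to 5.08 ± 1.79 and 1.76 ± 1.22 CPM in the intraperitoneal groups. In each class the oral IL-23 group had the largest SD of the 4 groups.

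**Figure D3:**
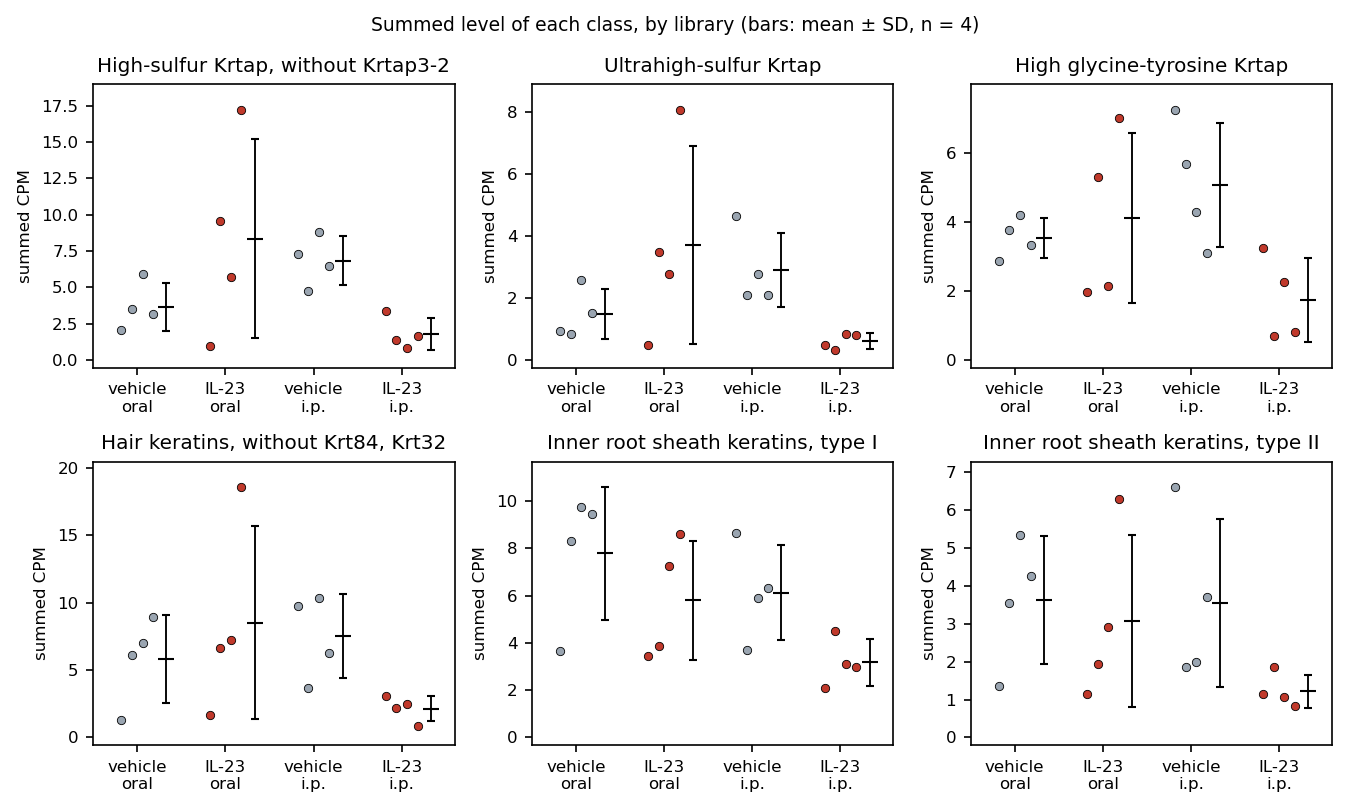
Summed CPM (y axis) of 6 classes of hair genes in each library (points) of the 4 groups (x axis; i.p., intraperitoneal), with mean ± SD beside the points. In the 3 Krtap classes, shown without Krtap3-2, and the hair keratins, shown without Krt84 and Krt32, the oral IL-23 libraries spread most, with library 68 the highest of that group, and the intraperitoneal IL-23 libraries lie low, for instance at 0.346 to 0.832 CPM for the ultrahigh-sulfur genes.

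Krtap26-1 (gene ID 69533, chr16:88646824-88647796), a high-sulfur gene, was the 1 of the 11 tested hair genes whose calls in the 2 routes had opposite signs. It stood at 0, 0.122, 0.400 and 0.304 CPM in the oral vehicle libraries and at 0, 2.66, 1.14 and 1.70 CPM with IL-23, where library 14 was at 0 and the others above all vehicle libraries (log2 fold change 2.66 ± 0.77, adjusted p = 0.00651, edgeR). In the intraperitoneal libraries it stood at 1.18, 0.264, 1.35 and 0.700 CPM with vehicle and at 0, 0.115, 0.238 and 0 CPM with IL-23, with no overlap (-3.04 ± 1.02, adjusted p = 0.0164). The counts were 10 and 47 in the oral and 44 and 3 in the intraperitoneal groups. Krtap26-1 passed the count filter through libraries 24, 68, 49 and 59, with 22, 16, 18 and 17 counts. These belong to the higher group of each route, so the gene was admitted by the groups where it is high. The fit with no count filter gave 2.68 in the oral and -3.01 in the intraperitoneal comparison (adjusted p = 0.00722 and 0.0182, edgeR). Without vehicle library 33 the oral fold change was 3.32, and without library 31 the intraperitoneal one was -3.96, both still called. With limma-voom the oral adjusted p was 0.0518, over the threshold.

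Among the other named Krtap genes, those with the highest levels of their class, none passed the count filter. Of the high glycine-tyrosine genes, Krtap8-1 had 31 and 31 counts in the oral vehicle and IL-23 groups and 40 and 6 in the intraperitoneal groups, Krtap19-3 had 20, 17, 28 and 8 in the same order, and Krtap19-5 had 17, 10, 26 and 6. Of the ultrahigh-sulfur genes, Krtap17-1 had 15, 18, 40 and 6 counts, Krtap10-10 had 11, 19, 31 and 1, and Krtap5-5 had 6, 17, 23 and 0. For Krtap5-5 the intraperitoneal level with IL-23 was at least 4.94-fold lower, with the same floor of 3 counts. For all 6 the fewest counts were in the intraperitoneal IL-23 group, but the IL-23 libraries tended to be smaller. Scaled for library size, the oral ratios of IL-23 to vehicle were 1.44 for Krtap8-1, 1.23 for Krtap19-3 and 0.848 for Krtap19-5. They were 1.73 for Krtap17-1, 2.49 for Krtap10-10 and 4.09 for Krtap5-5. The intraperitoneal ratios were 0.233, 0.444, 0.358, 0.233 and 0.0501 in that order, without Krtap5-5.

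In the fit with no count filter, which tests 20799 genes, 5 of the 70 hair genes were called higher and 2 lower in the oral comparison, where 44.5% of all genes were called (21.5% higher, 23% lower). The 2 further genes were Krtap14, with 0 counts in the vehicle group and 18 with IL-23, of which 14 were in library 68 (at least 8.65-fold higher against the floor), and Krtap28-13, with 5 and 17 counts. In the intraperitoneal comparison this fit called 2 higher and 17 lower, where 44.1% of all genes were called, 22.6% higher and 21.5% lower. The 12 further genes that were lower were Krt31, Krt33a, Krt33b, Krt83, Krtap3-3, Krtap5-5, Krtap7-1, Krtap10-10, Krtap12-1, Krtap13-1, Krtap19-9b and Krtap28-13. Krtap12-1 had 26 counts with vehicle and 0 with IL-23, at least 5.58-fold lower. Counted by non-overlapping libraries, 2 hair genes lay higher and 2 lower with IL-23 in the oral groups, where 20.3% of all genes with a count lay higher and 23.8% lower. In the intraperitoneal groups 2 lay higher and 15 lower, where the shares of all genes were 18.3% and 19.6%.

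Library by library, the 59 genes under the filter spread most within the oral IL-23 group. Their summed level was 4.11 CPM in library 14, 20.4 in library 24, 15.4 in library 26 and 45.1 in library 68, and 15, 46, 35 and 54 of the 59 genes had a count there. The oral vehicle libraries held 7.48 to 18.1 CPM, the intraperitoneal vehicle libraries 15.7 to 24.8 and the intraperitoneal IL-23 libraries 3.65 to 9.40. Of the 41 such genes with at least 20 counts in all, 22 had their highest level in library 68 and 4 in library 24, and none in library 14 or 26. Outside the oral IL-23 group, only library 49 (vehicle, intraperitoneal), also with 4, had as many as library 24. Krt75 and Krt84 did not follow this order of libraries: both were highest in library 26, and Krt84 ran only from 8.33 to 9.52 CPM among the 4.

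**Figure D4:**
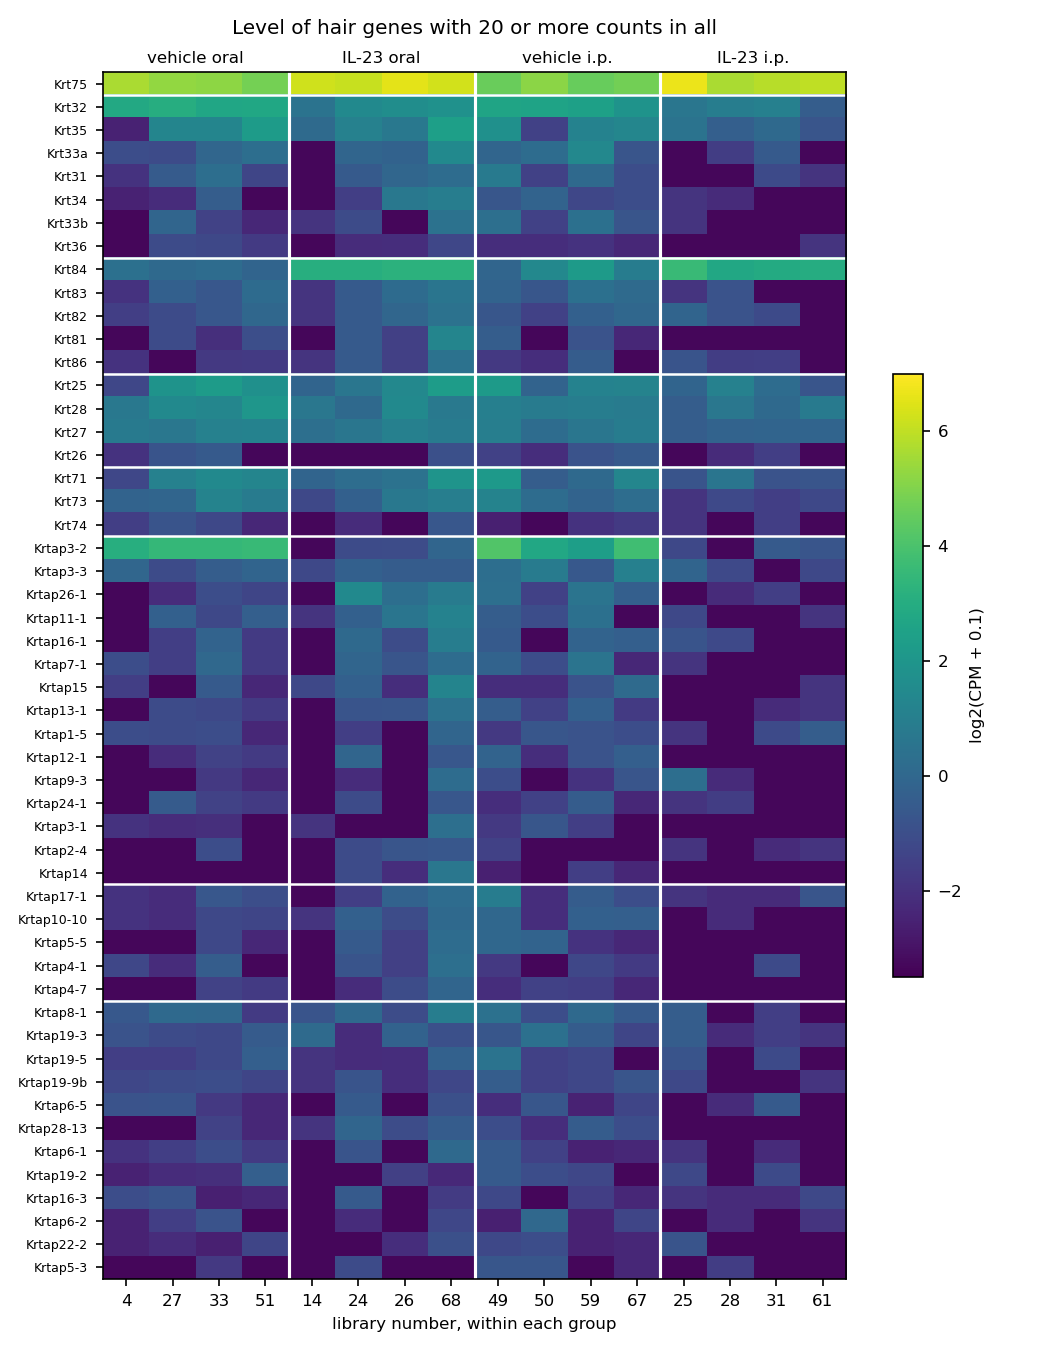
Level, as log2(CPM + 0.1) in colour, of the 52 hair genes with at least 20 counts in all (rows, in blocks by class) in the 16 libraries (columns, by group; i.p., intraperitoneal). Many shaft genes are brightest in library 68 and dark in library 14 and in the intraperitoneal IL-23 libraries, while Krt75 and Krt84 are bright in all 8 IL-23 libraries.

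Whether the response to IL-23 differed with the route was tested as the intraperitoneal minus the oral fold change. It was called for 0 of the 11 tested hair genes and for 0 of all genes (0% called) by edgeR. At an unadjusted p under 0.05 there were 3 hair genes, where 5.43% of all genes were: Krtap26-1 (-5.69 ± 1.27), Krt84 (-1.30 ± 0.51) and Krt73 (-1.95 ± 0.79). Their adjusted p was 0.875 by edgeR. DESeq2 and limma-voom called none of the 11 either, with 3 and 1 at an unadjusted p under 0.05. In the fit with no count filter 24 of 70 hair genes had an unadjusted p under 0.05, where 4.86% of all genes did, and none was called. These 24 share libraries and low counts, and library 68 holds many of their highest values, so they are not separate observations. The route comparison in vehicle mice (intraperitoneal minus oral) called 0 of 11 (0% of all genes called) by edgeR, and DESeq2 and limma-voom called none of the 11 either. At an unadjusted p under 0.05 edgeR gave 3, DESeq2 3 and limma-voom 2, where 7.41% of all genes were under it by edgeR: Krt84 at 1.23 ± 0.40, Krtap26-1 at 2.03 ± 0.79 and Krt75 at -0.50 ± 0.21.

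By position in GRCm38.p6, the hair genes sit in a few clusters. Chromosome 11 holds 33 of the 76 (11 type I keratins and 22 Krtap genes), chromosome 16 holds 24 Krtap genes, chromosome 15 holds the 10 type II keratins, chromosome 7 holds 5, chromosome 10 holds 3 and chromosome 1 holds 1, Krtap28-13. Genes called in opposite directions lay in the same clusters: Krt84 and Krt75 rose and Krt73 fell with IL-23 and intraperitoneal dosing, all on chromosome 15. RefSeq promoter windows of 300 bases were available for 65 of the 76 genes. TATAAA, on either strand, was found in 53 of them (81.5%), against 13.6% of all 32851 promoter windows, and in 38 of the 65 it began 20 to 40 bases before the start. It was in 41 of 50 Krtap windows and 12 of 15 Krt windows. Only these exact letters were counted, so windows such as those of Krtap3-3 and Krtap14, which hold the variant TATATAA, count as having none. CAAAG was in 66.2% of the hair gene windows and 53.9% of all, TGANTCA in 15.4% and 7.81%, and TTCNNNGAA in 18.5% and 8.30%. The Krt75 window, with no TATA match, and the Krt84 window, with a TATA match far from the start, differ in this from most, and the Krt32 and Krtap3-2 windows do not. Krt75, Krt84, Krt32 and Krtap3-2 were picked by their calls, and a link between motif and call was not tested. Krtap3-3, called lower with intraperitoneal dosing in the fit with no count filter, has no TATAAA match either. The Krt75 window also has 1 CAAAG and, like most hair gene windows, no AP-1 or STAT match. Paralogous promoters share sequence, so these shares are not counts of independent genes.

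Genes that act with the hair keratins were taken from lists of regulators, partner proteins and growth signals. Of 29 tested shaft and root sheath regulators, 20 fell, 5 rose and 4 were not called in the oral comparison, and 18 fell, 6 rose and 5 were not called in the intraperitoneal one. Over all genes tested, 29.2% were called higher and 34% lower in the oral comparison, and 30.8% and 30.9% in the intraperitoneal one. Wnt10b, a Wnt ligand of the follicle, went from 10.2 ± 1.35 to 1.56 ± 0.570 CPM (SD, n = 4) in the oral groups and from 8.71 ± 2.49 to 1.44 ± 0.329 CPM in the intraperitoneal groups. Edar, the ectodysplasin receptor, fell by 2.21 ± 0.27 and by 2.31 ± 0.30 on the log2 scale (SE) in the 2 routes, and Bmp4, a ligand that drives shaft differentiation, by 1.96 ± 0.17 and by 1.92 ± 0.17. Ovol1, a transcription factor of hair and epidermal differentiation, rose from 52.1 ± 9.43 to 220 ± 80.3 CPM in the oral and from 63.7 ± 5.4 to 153 ± 20.4 CPM in the intraperitoneal groups.

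Of 18 tested partner proteins that are not keratins, 12 rose, 2 fell and 4 were not called in the oral comparison, and 12 rose, 3 fell and 3 were not called in the intraperitoneal one. Of all genes tested, 29.2% were called higher and 34% lower in the oral comparison, and 30.8% and 30.9% in the intraperitoneal one. Several of the partner proteins, such as Tgm1, Cdsn, Dsc1 and Dsp, are also made by the epidermis between follicles. Psors1c2 went from 16.4 ± 3.35 to 289 ± 34.1 CPM in the oral and from 29.8 ± 7.73 to 271 ± 126 CPM in the intraperitoneal groups, and Tgm1, a transglutaminase that cross-links the cornified envelope, from 59.8 ± 9.41 to 370 ± 50.5 and from 87.9 ± 17.7 to 369 ± 133 CPM. Tchhl1, a relative of the inner root sheath protein trichohyalin, rose by a log2 fold change of 3.38 ± 0.49 and 1.81 ± 0.45 (SE). Mt4, a metallothionein of stratified epithelia, fell from 103 ± 10.9 to 25.6 ± 8.19 CPM and from 118 ± 10.4 to 27.8 ± 15.4 CPM. Of 16 growth and cycling signals, 9 fell, 3 rose and 4 were not called in each route. Among those that fell in both were Nog, a BMP antagonist, by 1.12 ± 0.19 and 1.74 ± 0.20 on the log2 scale, Sostdc1, a BMP and Wnt antagonist, by 1.61 ± 0.14 and 1.5 ± 0.14, Tgfb2 by 1.36 ± 0.16 and 1.48 ± 0.16, and Fgf10 by 1.68 ± 0.45 and 1.14 ± 0.44.

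Markers of the other structures in such tissue moved with IL-23 as well, and their part in the hair gene values was not tested. The shares of all genes tested were 29.2% higher and 34% lower in the oral comparison, and 30.8% and 30.9% in the intraperitoneal one. Of 10 outer root sheath and bulge markers, 9 fell and 1 rose in the oral comparison, and 8 fell and 1 rose in the intraperitoneal one. Of 7 tested dermal papilla markers, 5 fell and 1 rose in each route, and their summed level was 193 to 213 CPM and 81.3 to 118 CPM in the oral vehicle and IL-23 libraries and 202 to 251 and 70.0 to 149 CPM in the intraperitoneal ones. All 6 tested melanocyte markers, all 8 skeletal muscle markers and all 6 adipocyte markers fell in both routes, as did 6 of 8 sebaceous gland markers. Of 8 markers of the epidermis between follicles, 5 rose and 1 fell in the oral and 6 rose in the intraperitoneal comparison, and their sum was 24639 to 34209 and 56093 to 61855 CPM in the oral vehicle and IL-23 libraries and 30588 to 34612 and 42170 to 84528 CPM in the intraperitoneal ones. Of 8 interferon response genes, 2 rose in the oral and 6 in the intraperitoneal comparison, and none fell; their sum was 81.8 to 129 and 168 to 265 CPM in the oral vehicle and IL-23 libraries and 97.2 to 142 and 199.97 to 1500 CPM in the intraperitoneal ones. Of 6 tested T cell genes, 2 rose in the oral and 5 in the intraperitoneal comparison, and none fell, with a sum of 6.82 to 13.2 and 10.2 to 16.5 CPM in the oral and of 8.61 to 13.1 and 13.9 to 62.8 CPM in the intraperitoneal libraries. For the interferon and T cell lists, the share that rose in the oral comparison was near that of all genes. No gene of either list was called in the test of the difference between routes. No marker of these lists was at 0 in all libraries. Of the markers of tongue and nail epithelium, 2 of 5 were tested, and Krt84 was the 1 that was called.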

How the data were processed

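RNA from 16 mouse libraries was sequenced after TruSeq stranded total RNA preparation, per the labels' protocols. Per the submitters' processing notes, the tools were FastQC, STAR 2.52 and featureCounts from Subread 1.5.0, with build GRCm38. Neither the annotation release nor the strand setting nor the handling of reads that match several genes is given in the sources used here. The authors deposited raw read counts per gene, whole numbers whose totals ran from 6381990 to 14432930 per library. No number is shared between libraries of different groups, so nothing was paired.

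The test was edgeR 4.0.16 (R 4.3.3), quasi-likelihood, 2-sided, with TMM factors and 1 mean per group, which leaves 12 residual degrees of freedom. The filterByExpr filter (minimum count 10) kept 14671 genes, p-values were adjusted over all of them by Benjamini-Hochberg, and the threshold for a call was 0.05. "Rose" and "fell" are used of called genes only. SE was derived from the log2 fold change and its F statistic. Levels are CPM with TMM factors. Pooled count ratios have exact binomial 95% intervals, and a group at 0 counts was set to a floor of 3 counts; both cover counting error only. Alternatives were other scaling factors and filters, DESeq2 1.42.0, limma-voom (limma 3.58.1), only the groups compared, and leaving out each library; the last 2 kept the same genes. The main edgeR fit was tested on simulated data, for genes past the filter and the IL-23 comparison of each route. The other fits and comparisons were not tested in this way.

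All 76 genes matched RefSeq positions in GRCm38.p6. Krtap classes were set from codon composition of GENCODE M21 coding sequences, since amino acid sequences were not used here: high glycine-tyrosine at 35% or more of these codons, otherwise ultrahigh sulfur over 30% cysteine, otherwise high sulfur. Krtap28-13, Krtap5-2 and Krtap5-3 fall in the first although they are also cysteine-rich, with 42.8%, 34.6% and 35.1% cysteine codons. The high-sulfur class holds Krtap15, with 4.0% cysteine codons, and Krtap7-1, with 9.2% cysteine and 29.9% glycine-tyrosine codons. Promoters are from RefSeq. The genes named are every Krt gene with a count, the 3 Krtap genes of highest mean CPM in each class, up to 3 called Krtap genes in each direction whose higher group averaged 1 CPM or more, and up to 4 called genes of largest change from each list of partner genes. Krtap3-1, Krtap12-1, Krtap14, Krtap28-13 and the others called without a filter were named after their values were seen. The hair genes and lists were chosen with earlier results of these data known.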

Additional observations from a re-analysis of the deposited data

Results flagged for a closer look

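In 30 hair genes a library of a group was compared with the other 3 of its group, in 120 groups, and 9 libraries stood far from the rest by Dixon's ratio. Chance flags about 1 in 20 groups of normally spread values, a rate that does not hold for counts this low. A group with counts in only 1 library is always flagged, as for Krt26, Krt33b, Krt36 and Krtap10-10 below. Library 68 of the oral IL-23 group was the highest for 3 genes: Krt71 at 3.72 CPM against 0.821 to 1.27 in the other 3 libraries, Krtap19-5 at 0.744 CPM against 0.121 to 0.164, and Krt26 at 0.425 CPM against 0. In the intraperitoneal IL-23 group, library 28 was the highest for Krt71, at 1.38 CPM against 0.475 to 0.497, and for Krtap10-10, at 0.115 CPM against 0. Library 61 was the highest for Krtap17-1, at 0.497 CPM against 0.115 to 0.162, and for Krt36, at 0.166 CPM against 0. Library 25 was the highest for Krt33b, at 0.162 CPM against 0, and the lowest for Krt27, at 0.649 CPM against 0.808 to 0.832. The values of Krt33b, Krt36 and Krtap10-10 in these libraries rest on 1 count each.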

How the results depend on the processing

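The numbers of hair genes called higher with IL-23 were 3 in the oral and 2 in the intraperitoneal comparison, and those called lower 2 and 5. Only the filter moved them by over 1.5 times: with no count filter the oral comparison had 5 higher and the intraperitoneal one 17 lower, of 70 genes tested, and with 1 CPM in at least 4 libraries the latter had 8 lower, of 14 tested. Leaving out each library in turn gave 3 higher and 2 to 3 lower in the oral and 2 higher and 5 to 6 lower in the intraperitoneal comparison. No hair gene was called in the difference between routes or in the route comparison of vehicle mice under any setting run. No paired analysis was possible because the groups share no replicate number.

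Krtap3-2, Krt32, Krt75 and Krt84 kept their direction and call in both routes under all 8 settings and all 16 leave-one-out fits. Genes that were not called in the oral comparison turned sign: Krt25 to 0.0701 with limma-voom and between -0.86 and 0.0908 without single libraries, Krt35 to -0.0720 with plain library size and between -0.57 and 0.73, Krt71 to 0.00502 with RLE factors, to 0.13 with limma-voom and between -0.77 and 0.24, and Krt73 between -0.68 and 0.0623; the cause was not tested. Plain library size moved the median of all genes from -0.06 to -0.26 in the oral and from -0.02 to -0.23 in the intraperitoneal comparison, and the share of higher calls from 46.2% to 31.0% and from 49.9% to 31.5%. With it, Krt28 (oral, -0.84) and Krt71 (intraperitoneal, -1.75) passed the threshold. Depth limits the 59 genes under the filter, for which a group often holds under 20 counts.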
